A study of Acyrthosiphon pisum with 15 samples.

Results

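Winged and wingless males of Acyrthosiphon pisum, the pea aphid, an insect that feeds on plant sap, were compared in whole-body RNA sequencing. The comparison used the 6 male libraries among 15, chosen by the morph named in the labels: 3 of winged males and 3 of wingless males, with 1 library of each morph per clone, the clones being F1, I18 and BK11. Each library pooled the whole bodies of 30 adults. All males were 2 days old as adults and had been reared under a day of 13 h light and 11 h dark at 15 °C, so neither age nor rearing differed between the winged and the wingless males. The other 9 libraries hold winged asexual, wingless asexual and sexual females of the same clones. The asexual females were 2 days old and reared under a day of 16 h light and 8 h dark at 18 °C, and the sexual females were 2 to 6 days old and reared like the males. These libraries entered the fit for the estimate of the spread and served to place the male gene models in a wider range of morphs.

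A pea aphid clone reproduces without mating for most of the year and makes males and egg-laying females in autumn. A male is born to an asexual mother and inherits a single X chromosome from her. Whether a male of this species grows wings is set by a locus on that chromosome, aphicarus, and a clone that bears males of both morphs carries both alleles. Winged males can fly to find mates on other plants, whereas wingless males mate on the plant where they grew up. In asexual females, by contrast, wings follow from the conditions that the mother meets, such as crowding, and not from her daughters' genotype.

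Brothers of a clone share a genetic background apart from the X chromosome that each received, so each clone gives 1 pair of male libraries. The wing morph cannot be told apart from any other difference carried by the X chromosomes that the brothers did not share. The clones served as biological replicates and entered the main fit as a block, which takes out level differences between clones that all morphs share. The standard errors and p-values of that fit thus measure how far morph differences vary among clones, together with the spread among preparations. This spread was pooled over all morphs, females included. In whole bodies, fewer cells of a type and less RNA per cell cannot be told apart. The files do not pair the identifiers with gene names. Of the 20657 gene models, 61 were found in the available gene table, and only 1 of these carried a symbol, so gene models are given by identifier and no role can be given to them. No marker of wings, flight muscle or testis could therefore be used to check the labels.

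The males were represented by 31239249, 33003478 and 29233690 recovered reads in the winged and 31918756, 42784904 and 38041674 in the wingless libraries, here and below in the clone order F1, I18, BK11. Normalised counts, the deposited unit, are read counts divided by a size factor of the library and are not scaled for gene length. A count of 3 reads, the limit that a count of 0 allows, stood for 2.83 to 4.08 normalised counts in the male libraries. This limit covers counting error only. Between 19999 and 20157 gene models were detected in the winged and between 20033 and 20465 in the wingless libraries. The wingless male had more reads than its winged brother in every clone. Neither test of the reads passed, with a two-sided exact permutation p = 0.2, where 0.1 is the smallest that 3 against 3 libraries allow, and an exact sign-flip p = 0.25 over the clone pairs, the smallest that 3 pairs allow. For detected gene models both exact p were 0.5.

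The I18 wingless male and clone F1 set the first axes of variation, ahead of the wing morph. A principal component analysis of the 6 male libraries put 40.9% of the variance on a first axis that set the I18 wingless male, at a score of 183.0, apart from the other 5 libraries, at −115.1 to 29.8. On this axis the wingless male also lay above its winged brother in every clone. The scores were 29.8 against −27.3 in F1, 183.0 against −23.8 in I18 and −46.7 against −115.1 in BK11. The second axis, with 31.6%, set both F1 males, at 106.2 for the winged and 120.8 for the wingless, apart from the I18 and BK11 males, at −71.5 to −36.4. On the third axis, with 12.5% of the variance, the winged male lay above the wingless male by 76.2 in F1, 87.6 in I18 and 62.0 in BK11. Brothers were the closest libraries in F1 and BK11, with correlations of log2 values of 0.953 and 0.947, and less close in I18, at 0.879.

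The I18 wingless male stood apart in single gene models as well. It was at least 8-fold above every other male library for 456 gene models, against 5 to 12 in the other 5 male libraries. These 456 had a median of 859.8 normalised counts in the I18 wingless male and 15.8 in the other males, and medians of 283.1 in winged asexual, 283.3 in wingless asexual and 104.5 in sexual females. The 10 most abundant gene models took 8.16% of that library, against 12.1% to 13.6% of the other 5. The BK11 winged male stood apart in the other direction, at least 8-fold below every other male library for 125 gene models, of which 102 (81.6%) had at most 10 normalised counts in every female library. Elsewhere 7 to 20 gene models lay below all other male libraries.

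Markers of the female morphs, chosen without the male libraries, differed among the male libraries. Those of asexual females were highest in the I18 wingless male, and those of sexual females were highest, by median, in the BK11 males. The 229 markers of asexual females, with at least 1000 normalised counts in every asexual library and at most 10% of that in sexual females, stood at a median of 8.94%, 9.40% and 6.59% of their asexual level in winged males and 7.16%, 25.5% and 10.4% in wingless males. Summed, they ranged from 278233 to 427669 in winged males, against 397863 to 2368160 in wingless males, with the I18 library highest. At most 2 of the 229 were at 0 in any male library. The 15 markers of sexual females, with at least 10000 normalised counts in every sexual female library and at most 1% of that in asexual females, had a median of 0%, 0.00395% and 1.06% of their sexual female level in winged males and 0.000714%, 0.00129% and 0.457% in wingless males. Summed, they ranged from 173.1 to 55748.3 in winged and from 472.4 to 179581 in wingless males, and up to 8 of the 15 were at 0 in the F1 and I18 males but none in the BK11 males. The highest sum was that of the I18 wingless male, where 7 of the 15 were at 0 and their median was 1.89 normalised counts. Only part of the 15 thus made up that sum. None of the 229 or the 15 passed the test between the male morphs, where 0.631% of all tested gene models did, so nothing was read from this count. The part of these markers in the results was not tested, and counts that rest on the I18 wingless male are given with and without it.

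**Figure D1:**
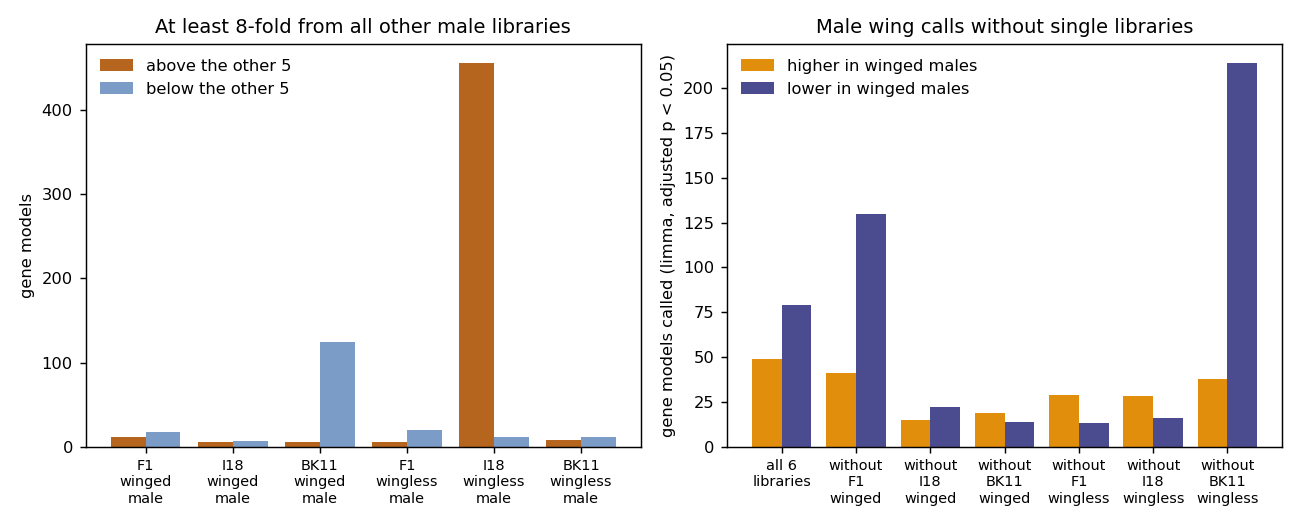
Left, the number of gene models (vertical axis) at which 1 male library lies at least 8-fold above or below each of the other 5, for the 6 libraries, with the I18 wingless male at 456 above and the BK11 winged male at 125 below. Right, the number of gene models called higher or lower in winged males with all 6 libraries and without each in turn (limma, clone block, adjusted p threshold 0.05); the lower calls range from 13 to 214.

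Between winged and wingless males, 128 of 20301 tested gene models passed the threshold of 0.05 (0.631%; limma with clone as a block, Benjamini-Hochberg adjustment). Of these, 49 were higher (0.241%) and 79 lower (0.389%) in winged males. The calls were large changes: 33 of the 49 and 75 of the 79 differed at least 8-fold, while 471 of all tested gene models did. The 49 had a median log2 fold change of 3.84 (1.11 to 7.18) and the 79 a median of −4.64 (−6.85 to −2.40), beside −0.03 for all tested gene models. Counting the 1 gene model with no read in any winged male at its bound left the median of the 79 at −4.64. The 49 included 12 changes under 4-fold and the 79 none.

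All 128 went in 1 direction in all 3 clones. The values of the 2 morphs did not overlap for 49 of the 49 and 78 of the 79, and such a separation was seen in 1148 gene models above and 1400 below among all tested. Because the members were chosen by this contrast, nothing further was read from these counts. At an unadjusted p under 0.05 there were 1846 gene models (9.09%). Without the I18 wingless male, 28 gene models were higher (0.138%) and 16 lower (0.0788%) in winged males, and 1010 (4.98%) had an unadjusted p under 0.05. That smaller set held 25 of the 49 and all 16 lower calls were among the 79, so 41 of 128 calls were kept and 87 lost.

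Other single libraries moved the counts as much. There were 41 higher and 130 lower calls without the F1 winged male, 15 and 22 without the I18 winged male, and 19 and 14 without the BK11 winged male. The numbers were 29 and 13 without the F1 wingless male and 38 and 214 without the BK11 wingless male. Called in every one of these 6 fits were 11 of the 49 and 10 of the 79. Without all libraries of clone F1, limma called none (1526 at an unadjusted p under 0.05). Without those of clone I18 it called 1 higher and 1 lower (830 at an unadjusted p under 0.05). Of these, 1 was among the 49 and 0 among the 79. Without those of clone BK11 it called 11 higher and 13 lower (1779 at an unadjusted p under 0.05), of which 6 and 11 were among the 49 and the 79.

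**Figure D2:**
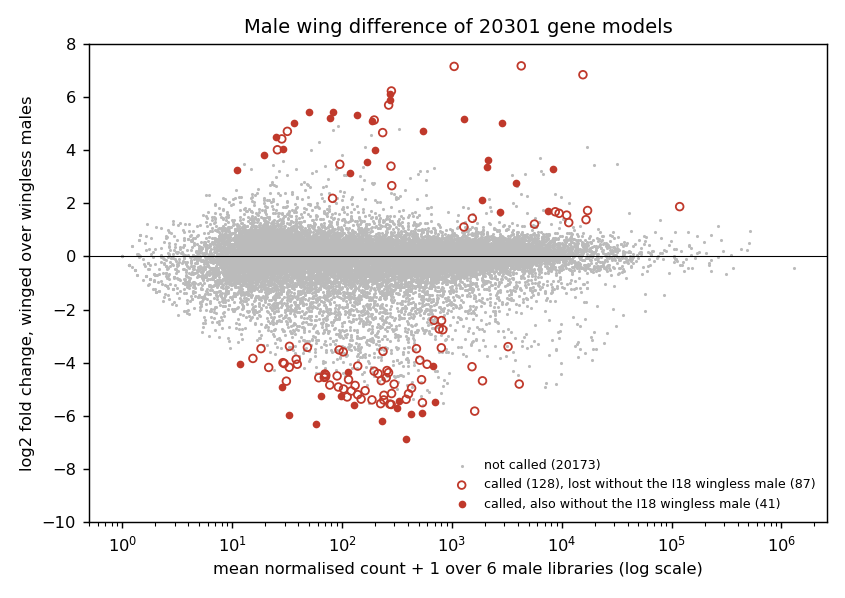
Log2 fold change of winged over wingless males (vertical axis) against the mean normalised count plus 1 over the 6 male libraries (horizontal log axis) for 20301 gene models. Red symbols mark the 128 called, filled for the 41 that were also called without the I18 wingless male; the calls below 0 lie at −2.40 or lower.

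The gene models higher in winged males were spread over female levels much as all gene models were. Of the 49, 27 (55.1%) had at least 10 normalised counts in every female library, close to the 54.2% of all tested, and 4 (8.16%) had at most 10 in every female library, against 6.38% of all tested. The 27 had medians of 2813, 5175 and 3770 normalised counts in winged males and 856.5, 814.1 and 821.7 in wingless males, and their log2 fold changes had a median of 2.19. For 39 of the 49 (79.6%), every winged male lay above all 12 other libraries, females included, which 431 gene models (2.12%) did among all tested. For 8 of the 49 (16.3%), every wingless male lay below all 12 other libraries, against 96 (0.473%) of all tested. Both patterns share the male values that chose the 49 and are given as a description.

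ACYPI004530-RA, named by the rule for the smallest adjusted p, belongs to the abundant group. It had 12598, 17263 and 15507 normalised counts in winged males and 1168, 1411 and 2235 in wingless males. The morphs did not overlap, and the lowest winged male was above every female library, where it lay between 743.9 to 5332. Its log2 fold change was 3.28 ± 0.32 (SE), with a limma adjusted p = 0.0013, and 0.0061 without the I18 wingless male.

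ACYPI065920-RA, the other gene model named for higher levels, was set apart by low values in wingless males. Winged males had 283.3, 1070.6 and 252.8 normalised counts and wingless males 9.08, 9.43 and 1.16. Winged asexual females had 54.4, 115.9 and 41.3, wingless asexual females 121.5, 67.5 and 21.6, and sexual females 129.3, 84.6 and 41.0. All 9 female libraries thus lay between the male morphs, and the BK11 wingless male was at about 1 read. The log2 fold change was 6.13 ± 0.57, with a limma adjusted p = 0.0013, and 0.0051 without the I18 wingless male. Whether similar gene models share reads was not tested.

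Few gene models were near 0 in wingless males and present in winged males. With at most 3 reads in each wingless male and at least 10 normalised counts in each winged male, 4 gene models were found, and all 4 were called (0.241% of all tested were called higher). Since the rule used this contrast, that count is a description. They were ACYPI069862-RA, ACYPI070894-RA, ACYPI089218-RA and ACYPI39883-RA, named after their values were seen, and ACYPI39883-RA lost its call without the I18 wingless male (limma adjusted p = 0.095). ACYPI069862-RA had 48.7, 131.7 and 107.3 normalised counts in winged males and 1.30, 2.83 and 0 in wingless males, and at most 7.07 in any female library. From pooled reads, 216 in winged and 4 in wingless males, it was 64.2-fold higher in winged males, with a 95% counting interval of 24.7 to 237.7. ACYPI089218-RA was even in winged males, at 59.0, 79.8 and 67.9, against 3.89, 0.943 and 0 in wingless males, and at 0 in all wingless asexual and sexual females. For both, the 3 winged males lay above all 12 other libraries. All 4 were under 10 in every wingless male and had at most 10 in every female library. They thus passed the filter on low values only through the winged males, where they had to be higher. A fit of the recovered reads with edgeR did not call any of the 4 (edgeR adjusted p of 0.05025 to 0.186).

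ACYPI065304-RA, also chosen after its values were seen because it was called in all 6 fits without a male library, joined a high level in winged males to a low level everywhere else. It had 578.2, 839.2 and 1730 normalised counts in winged males and 36.3, 20.8 and 55.5 in wingless males, and 3.97 to 39.1 in females. The winged males stood clear of all other libraries, and the highest of the rest was the BK11 wingless male. Its log2 fold change was 4.72 ± 0.51 (limma adjusted p = 0.0021, and 0.01 without the I18 wingless male). A fit of the recovered reads with edgeR called it too (edgeR adjusted p = 0.010).

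**Figure D3:**
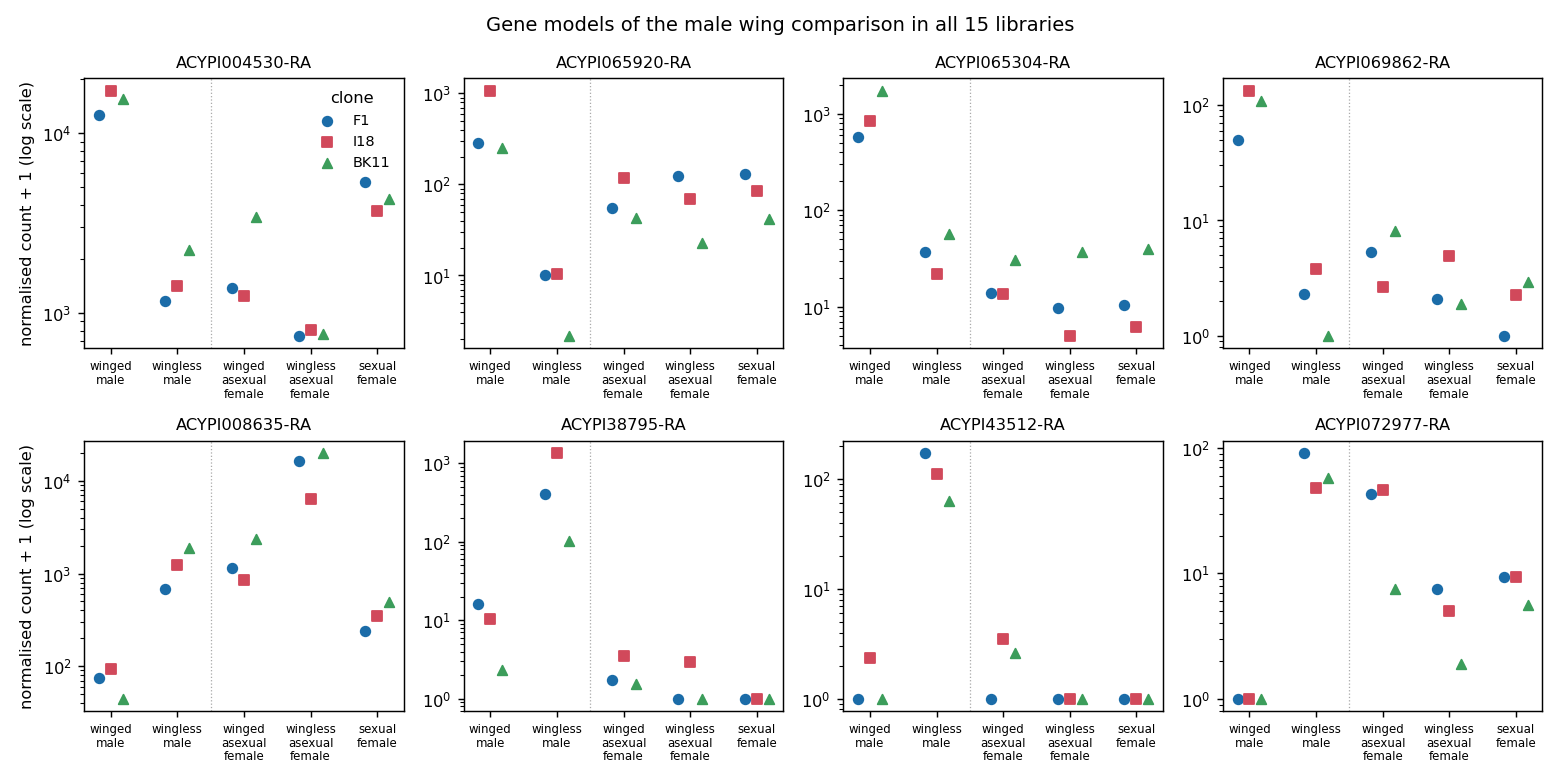
Normalised count plus 1 (vertical log axis, separate for each panel) of 8 gene models in the 5 morphs (horizontal axis), with 1 point per library and the clone given by symbol. In the upper row winged males lie above wingless males in every clone, and in the lower row wingless males lie above; ACYPI072977-RA was at 0 in all 3 winged males.

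The gene models lower in winged males had another profile: most were close to silent in females. Of the 79, 57 (72.2%) had at most 10 normalised counts in every female library, against 6.38% of all tested gene models. These 57 had medians of 11.5, 6.65 and 1.36 normalised counts in winged males and 242.7, 677.3 and 41.6 in wingless males, and the median of their log2 fold changes was −4.85. Among wingless males, I18 had the top value for 49 of the 57, and the BK11 library was the lowest wingless male for 54 and the lowest winged male for 44. Without the I18 wingless male, 12 of the 57 were called. Of the 57, 22 were under 10 in every winged male and so passed the filter on low values only through the wingless males, where they had to be higher. As the filter asked for 10 normalised counts in 3 libraries, any other with a winged male under 10 also needed wingless males to pass. The median of 1.36 in the BK11 winged male puts most of the 57 in that position. The female libraries also entered the estimate of the spread. Gene models at or near 0 in females vary little there, so their standard errors can be smaller than the males alone would give. How far this bears on the share of 72.2% was not tested. In the fit of the 6 males alone, 2 gene models were called higher and 0 lower.

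ACYPI38795-RA, named by the rule, is one of the 57. It had 15.4, 9.31 and 1.36 normalised counts in winged males and 408.8, 1340.4 and 100.5 in wingless males, and at most 2.50 in any female library. The order of clones differed between morphs, and the lowest wingless value, in BK11, was still above the highest winged value. Its log2 fold change was −5.70 ± 0.72 (limma adjusted p = 0.0066, and 0.032 without the I18 wingless male). It was called in all 6 fits that left out 1 male library. Only the wingless males and the F1 winged male had 10 or more, so its passing the filter rested on the wingless males.

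Some gene models were near 0 in all winged males and present in all wingless males. With at most 3 reads in each winged male and at least 10 normalised counts in each wingless male, 17 gene models were found, against 4 in the reverse direction, and 12 of the 17 were called, of which 7 were called without the I18 wingless male. As these 21 gene models were picked by the contrast tested, with 0.631% of all gene models called, nothing was read from those counts. ACYPI43512-RA, singled out after its values were seen, had 0, 1.33 and 0 normalised counts in winged males and 170.0, 109.4 and 62.4 in wingless males. That is 1 read against 301, 253-fold lower in winged males with a 95% counting interval of 45.1 to 10033 (limma adjusted p = 0.0013, and 0.0051 without the I18 wingless male). A fit of the recovered reads with edgeR did not call it (edgeR adjusted p = 0.11). In females it reached 2.50, so it passed the filter on low values only through the wingless males, where it had to be higher. ACYPI072977-RA, also singled out afterwards, had no read in any winged male, against 89.5, 47.2 and 56.6 in wingless males. Outside the wingless males, only the F1 and I18 winged asexual females reached 10, at 42.2 and 45.0. Passing the filter on low values thus also needed the wingless males, where this gene model had to be higher. With 0 reads over the winged males taken as 3, the ratio was 47.1-fold. The exact 95% counting interval, which also covers the error of the wingless reads, started at 37.9-fold (limma adjusted p = 0.0019, and 0.0051 without the I18 wingless male). The edgeR adjusted p of ACYPI072977-RA was 0.030.

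**Figure D4:**
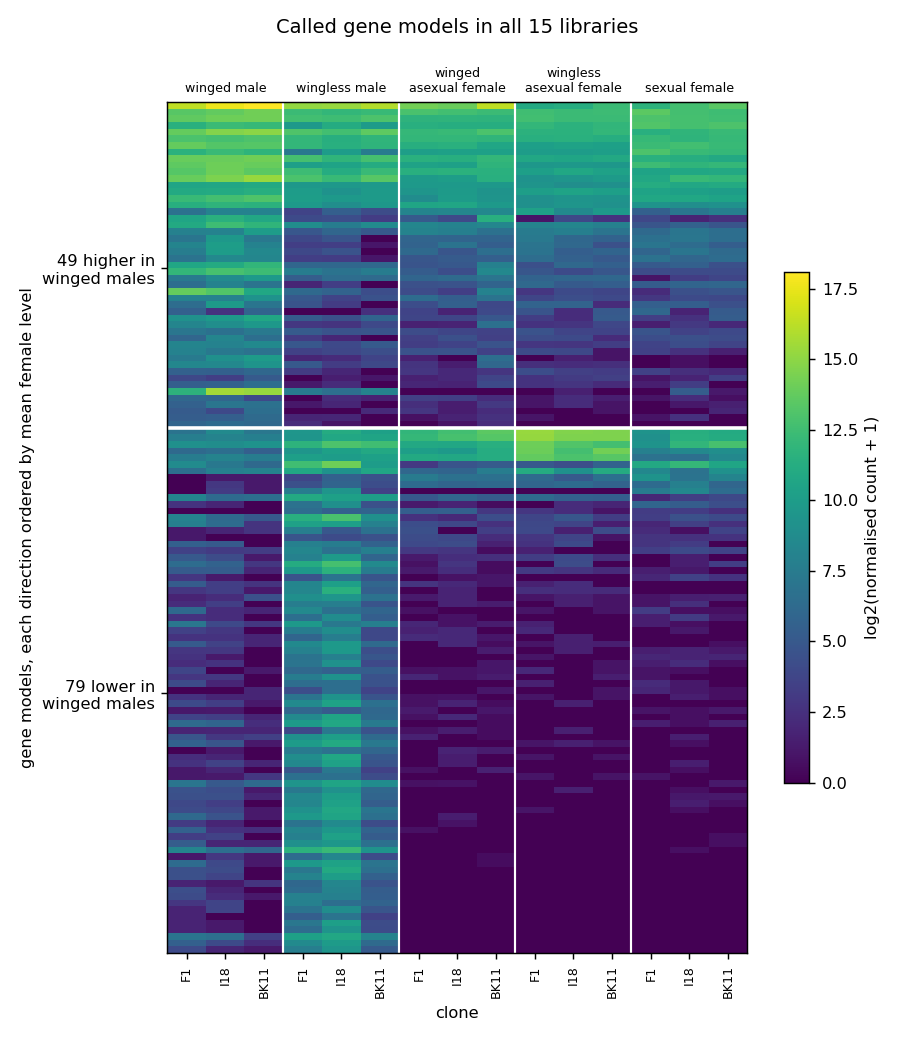
Log2(normalised count + 1) (colour) of the 128 called gene models (rows) in all 15 libraries (columns, grouped by morph with the clone below), ordered by mean female level within each direction. Of the 79 lower in winged males, 57 had at most 10 normalised counts in every female library, and 4 of the 49 higher did.

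The female-silent profile was followed beyond the called gene models, in a class chosen by level and not by the morph difference. Male-restricted gene models were those with at most 10 normalised counts in every female library and a mean of at least 100 over the 6 male libraries, and 507 met this rule. No name allowed the tissues behind this class to be checked. Their summed normalised counts were 461720, 314279 and 96150.3 in winged males and 1014400, 1069360 and 273393 in wingless males. In every clone the winged male had the smaller sum, at 0.455 of the wingless sum in F1, 0.294 in I18 and 0.352 in BK11. The class took 1.15%, 0.716% and 0.242% of the normalised counts in winged males and 2.45%, 2.65% and 0.622% in wingless males. Both BK11 males had less of it than their counterparts in the other clones, and the BK11 wingless male less than the F1 and I18 winged males.

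The lower level in winged males was spread over the class. The median gene model of the 507 had a log2 fold change of −2.09, with clone medians of −1.47, −2.79 and −2.17, and 91.7%, 88.4% and 90.3% of the class were lower in the winged male of F1, I18 and BK11. The other 19794 tested gene models had a median of −0.02. None of the 507 was called higher and 38 (7.50%) were called lower, against 49 higher and 41 lower (0.207%) of the others. Choosing the class without the I18 wingless male gave 405 gene models with a median of −1.70 and clone medians of −1.24, −1.98 and −1.91. With all libraries in the fit, 18 of the 405 (4.44%) were called lower and none higher. In the fit without the I18 wingless male, the median of the 507 was −1.64 and that of the 405 was −1.42. That fit called 8 of the 507 (1.58%) and 4 of the 405 (0.988%) lower and none of either higher, beside 0.0788% lower of all tested. Of the 507, 11 were under 10 in every winged male.

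**Figure D5:**
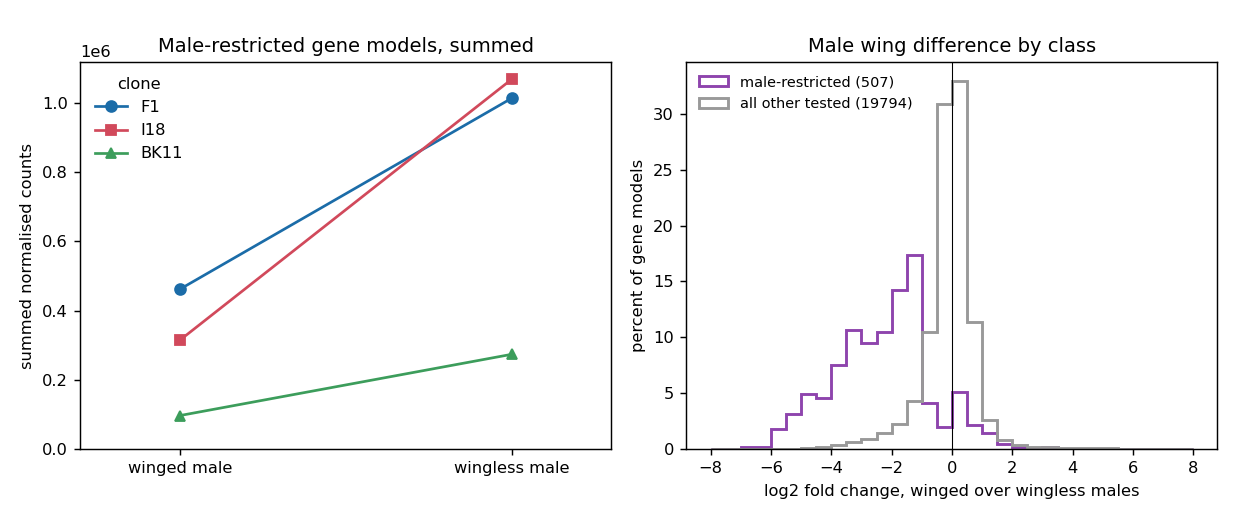
Left, summed normalised counts (vertical axis, from 0) of the 507 male-restricted gene models in the winged and the wingless male of each clone, joined by a line; the winged male is lower in all 3 clones. Right, the distribution of the log2 fold change of winged over wingless males (horizontal axis, vertical axis in percent of gene models) for the 507, with a median of −2.09, and for the other 19794 tested, with a median of −0.02.

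A smaller share of the gene models lower in winged males was active in females. Of the 79, 8 (10.1%) had at least 10 normalised counts in every female library, against 54.2% of all tested gene models. These 8 had medians of 105.1, 252.0 and 170.5 in winged males and 720.9, 1132 and 1406 in wingless males. ACYPI008635-RA, named by the rule, is the 1 of these 8 that was also called without the I18 wingless male. It had 73.1, 93.1 and 43.5 normalised counts in winged males and 678.7, 1237.6 and 1891.8 in wingless males. Winged asexual females had 1151, 850.7 and 2370, wingless asexual females 16361, 6449 and 19813, and sexual females 238.9 to 492.8. The winged males were below all 12 other libraries, and the winged insects were lower in both sexes. The male log2 fold change was −4.11 ± 0.48 (limma adjusted p = 0.0044, and 0.025 without the I18 wingless male).

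The male wing difference was shared in part across clones. The log2 ratio of winged to wingless male, over 12115 gene models with a mean of at least 100 normalised counts, correlated between clones with a Pearson r of 0.437 for F1 and I18, 0.443 for F1 and BK11 and 0.422 for I18 and BK11. Over all 20301 tested gene models the values were lower, at 0.332, 0.276 and 0.304. These correlations are across gene models, which are not independent replicates, and the clones compared share no library. At least 8-fold higher in winged males, with a higher value of at least 100, were 107 gene models in F1, 108 in I18 and 102 in BK11, of which 19 were so in all 3 clones. At least 8-fold lower were 223 in F1, 1093 in I18 and 307 in BK11, of which 66 were so in all 3. In I18 this excess of lower values falls in the pair that holds the wingless male described above.

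For most gene models the data did not set a narrow bound on the difference between male morphs. The 95% interval of the fold change lay within 2-fold in either direction for 4849 of the 20301 (23.9%). The share was 3360 of 5707 (58.9%) among gene models with a mean of at least 1000 normalised counts, and 1489 of 14594 (10.2%) among the rest. In most gene models the interval thus reached beyond 2-fold, more often at low levels. Leaving out 1 male library gave 3279 to 5391. Of the 61 gene models found in the gene table, none was called, where 0.631% of all tested were, with log2 fold changes of −4.74 to 0.77 and a median of −0.13.

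The only identifier with a symbol was Syt4 (ACYPI009209-RA), a synaptotagmin, a family of vesicle membrane proteins that act in secretion. It had 10860, 6256 and 7292 normalised counts in winged males and 7942, 4486 and 7082 in wingless males. The winged male was the higher of the pair in each clone, yet the morphs overlapped across clones. Its log2 fold change was 0.32 with a 95% interval of −0.33 to 0.98 (limma adjusted p = 0.86), so a change above 2-fold in either direction lay outside the interval.

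The male difference was then set beside that between winged and wingless asexual females, which share the clones and the age but were reared with longer days and at a higher temperature, and which take their wing form from the environment. In females, 2686 gene models were called (13.2%), 1068 higher (5.26%) and 1618 lower (7.97%) in the winged morph. Of the 49 higher in winged males, 5 (10.2%) were also higher in winged females, and 6 of the 79 (7.59%) were lower in both. The male call held without the I18 wingless male for 4 of these 5 and for 1 of the 6, ACYPI008635-RA. The 5 were ACYPI004530-RA, ACYPI004091-RA, ACYPI005193-RA, ACYPI22539-RA and ACYPI27568-RA. ACYPI004091-RA, named with this set after its values were seen, was the most abundant of them. It had 85962, 203320 and 279430 normalised counts in winged males, 36446, 41216 and 65577 in wingless males, 19742, 15568 and 82850 in winged females and 2081, 2413 and 5086 in wingless females. In both sexes the morphs did not overlap, and the log2 fold changes were 1.88 ± 0.33 in males (limma adjusted p = 0.027, and 0.10 without the I18 wingless male) and 3.32 ± 0.33 in females (limma adjusted p = 0.0005). ACYPI008635-RA, lower in both, differed in effect between the sexes by −0.84 ± 0.69 (limma adjusted p = 0.55).

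The difference between the male and the female effect was tested for every gene model. It passed for 520 (2.56%), 344 positive (1.69%) and 176 negative (0.867%), and included 22 of the 49 and 38 of the 79 male calls (without the I18 wingless male, 18 of 28 and 13 of 16). The male calls were chosen by the male effect, which is part of the difference tested, so their counts here are a description. For 440 of the 520 the effect was larger in females and for 80 larger in males. Without the I18 wingless male there were 331 positive and 108 negative calls. The counts also changed by more than 1.5 times without other libraries: 141 and 74 without the F1, 22 and 8 without the I18 and 124 and 40 without the BK11 winged male, 38 and 21 without the F1 wingless male, and 144 positive without the BK11 wingless male. They were 17 and 5 without the F1 and 74 and 32 without the I18 winged female, and 15 and 9, 150 and 36, and 20 and 11 without the F1, I18 and BK11 wingless females.

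Among the 80, ACYPI065920-RA had a female log2 fold change of 0.18 ± 0.57 and an effect that differed between the sexes by 5.95 ± 0.80 (limma adjusted p = 0.0098), and ACYPI38795-RA a difference of −6.24 ± 1.02 (limma adjusted p = 0.018). ACYPI004530-RA, which rose in both sexes, rose more in males, by 2.05 ± 0.45 on the log2 scale (limma adjusted p = 0.037), a call lost without the I18 wingless male (0.053). These gene models were chosen for their male effect, which is part of the difference tested, so these p-values serve as a description. In 2 gene models, named for this after their values were seen, the effect was called in both sexes with opposite signs. ACYPI072977-RA, at 0 in winged males, had 42.2, 45.0 and 6.52 normalised counts in winged and 6.45, 3.97 and 0.899 in wingless asexual females. It was thus low in the winged morph of males and high in that of females, with a female log2 fold change of 2.58 ± 0.61 (limma adjusted p = 0.017). ACYPI001819-RA had 13254, 17136 and 18784 in winged males, 6317, 5602 and 8490 in wingless males, 3298, 3490 and 3333 in winged females and 6407, 5262 and 5152 in wingless females. Its log2 fold change was 1.28 ± 0.21 in males (limma adjusted p = 0.021, and 0.10 without the I18 wingless male) and −0.73 ± 0.21 in females (limma adjusted p = 0.042).

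The 4 gene models that the rule named for the smallest adjusted p of this difference changed in females and were not called in males. All 4 calls of the difference were lost without clone F1 (limma adjusted p of 0.14 to 0.27) and without clone I18. ACYPI010177-RA had 2123, 3495 and 4815 normalised counts in winged males and 2027, 2365 and 4809 in wingless males, beside 286.8, 432.9 and 697.4 in winged and 4815, 4302 and 5293 in wingless females. Winged asexual females were low, as were sexual females at 354.1 to 440.7, with log2 fold changes of 0.21 ± 0.27 in males and −3.43 ± 0.27 in females and a difference of 3.64 ± 0.38 (limma adjusted p = 0.0029). ACYPI001278-RA was far more abundant, at 281710 to 577030 in winged and 227840 to 471770 in wingless males, 8719 to 15213 in winged and 95731 to 138980 in wingless females. The male minus female effect was 3.69 ± 0.45 (limma adjusted p = 0.009). ACYPI007703-RA had 1373 to 1425 in winged and 202.2 to 260.2 in wingless females, beside 1011 to 1490 in winged and 1244 to 1728 in wingless males, with wingless asexual females lowest. Its male minus female effect was −2.91 ± 0.29 (limma adjusted p = 0.0029). ACYPI072975-RA also had its lowest values in wingless asexual females, at 559.3 to 658.0 in winged and 45.8 to 74.2 in wingless females, beside 269.1 to 376.4 in winged and 329.4 to 746.1 in wingless males. The male minus female effect was −3.91 ± 0.50 (limma adjusted p = 0.0098).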

How the data were processed

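RNA of 30 whole bodies per library was sequenced on an Illumina instrument, per the labels' protocols. The deposited signal is, from its values, a gene read count that the authors divided by a size factor of the library. Per the submitters' processing notes, DESeq2 was used, with no version. For the aligner, counting tool, strand setting, genome build and annotation the details were not given in the sources used here. Per library, 100% of values were whole multiples of the smallest positive value within 0.001 of a read, so read counts were recovered.

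Log2(value + 1) was fitted with limma 3.58.1 in R 4.3.3, with a mean-dependent prior variance, 5 morph means, clone as a block, all 15 libraries and residual degrees of freedom of 8. Gene models with at least 10 normalised counts in at least 3 libraries were tested (20301, with 356 left out). The Benjamini-Hochberg adjustment was applied per comparison, at a threshold of 0.05. Fold changes on this scale understate the change of gene models near 0, and levels are not comparable between gene models of different length.

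The clone label pairs the samples: deviations from the morph mean correlated at 0.592, 0.382 and 0.533 between brothers of F1, I18 and BK11, and at −0.426 to −0.111 between different clones. Gene models named by rule had the smallest adjusted p, a mean of at least 100 normalised counts in males, 1 direction in all clones and a call without the I18 wingless male, with 2 in each direction. The members, lists and rules were chosen with earlier results of these data known. Gene lists by product name were not run. No gene model met the first rule for markers of sexual females (at most 10 normalised counts in every asexual female library), so a rule of at most 1% of the sexual female level was added after seeing the data, as was the male-restricted class without the I18 wingless male. Alternatives were other pseudocounts, filters and scalings, robust variances, quality weights, no replicate block, the males alone, leaving out libraries or clones, and edgeR 4.0.16 and DESeq2 1.42.0 on the recovered reads. The limma and edgeR fits were also run on simulated counts with known male wing effects and clone effects that all morphs shared. The simulation held no library that stood apart as the I18 wingless male does. It therefore cannot show how the calls depend on single libraries, and nothing was read from it on that.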

Additional observations from a re-analysis of the deposited data

Results flagged for a closer look

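The following gene models and counts drew attention because the wing effect differed between males and asexual females in a direct test of the difference. Rearing differed between the sexes, so sex and rearing cannot be told apart in it. The test called 344 positive and 176 negative differences, male minus female effect on the log2 scale. Of the gene models called between the male morphs, ACYPI065920-RA differed by 5.95, ACYPI004530-RA by 2.05 and ACYPI38795-RA by −6.24. Their choice used the male effect, which is part of this difference. Of those named for the difference itself, ACYPI010177-RA differed by 3.64, ACYPI001278-RA by 3.69, ACYPI007703-RA by −2.91 and ACYPI072975-RA by −3.91. The 2 gene models called with opposite signs in the sexes were ACYPI072977-RA, with a difference of −8.56, which depends on the pseudocount because all winged males were at 0, and ACYPI001819-RA, with 2.00.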

How the results depend on the processing

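Tested gene models near 0 limit what the calls can show, since 3 reads stood for up to 4.08 normalised counts, and 3 clones set the precision. Of the 49 higher and 79 lower calls between male morphs, no replicate block gave 35 and 36, a pseudocount of 0.5 gave 34 lower and of 8 gave 164 lower, and a filter of 50 gave 31 and 19. Sample quality weights gave 79 higher, edgeR 13 and 8 (2095 at an unadjusted p under 0.05), DESeq2 145 and 535, and the 6 males alone, with 2 residual degrees of freedom, 2 and 0 (2424 at an unadjusted p under 0.05). No replicate block without the I18 wingless male gave 21 and 8. Leaving out a library or clone gave 0 to 41 higher and 0 to 214 lower, the lowest without clone F1. Leaving out the I18 and BK11 wingless males, the BK11 winged male and the BK11 sexual female, whose values had raised doubt in earlier work on these data, gave 0 and 0 (1176 at an unadjusted p under 0.05). This leaves 1 wingless male, which is assumed to vary like the other groups. The share of higher calls, 38.3%, was 49.3% without the block, 50.7% and 29.3% with pseudocounts of 0.5 and 8, 62.0% with the filter of 50, 61.9% with edgeR and 21.3% with DESeq2. For the difference between the sexes, the 344 positive and 176 negative calls became 1905 and 1489 with quality weights, 45 and 33 with edgeR, 953 and 850 with DESeq2, 200 and 65 without the block and the I18 wingless male, and 1 and 0 without those 4 libraries. Leaving out a library or clone gave 0 to 418 positive and 0 to 183 negative. The causes of these changes were not tested. No named gene model changed sign in the 22 alternatives for the male effect. ACYPI38795-RA lost its call in 6 of 22 (limma adjusted p up to 0.22), ACYPI008635-RA in 5, and ACYPI004530-RA and ACYPI065920-RA in 4 each, among them the males alone and the fits without clone F1 or I18. Of the gene models named for the difference between the sexes, ACYPI010177-RA, ACYPI007703-RA and ACYPI072975-RA lost the call in 4 of 28 alternatives each and ACYPI001278-RA in 2, with limma adjusted p up to 0.27. With the replicate block left out, all 4 named for the male effect stayed past the threshold.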
